A study of Mus musculus with 10 samples.

Results

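Genes of the autophagy machinery were compared between mouse macrophages that keep Jaml, the gene of an adhesion molecule of leukocytes, and macrophages in which it was removed or reduced (WT and KO below). The members were the protein-coding entries of the deposited count table whose symbol begins with Atg and a digit, together with 18 named genes of the same pathway, and 37 of 56980 table entries met this rule. All 37 passed the filter on low counts. Cells of either genotype were primed for 8 h with 100 ng/ml of LPS, a bacterial cell wall component, and then given 5 mM ATP for 30 min, so the treatment was shared and no resting cells are part of the comparison. Each genotype had 5 libraries. The titles name the second genotype JAMLMKO, read here as a knockout, while the genotype tag says JAML Knockdown, and the labels name no Cre line, strain, age or sex. Its columns carry the heading SI, which no label spells out. They were taken as KO by elimination, and every direction given here rests on that. Whether the libraries of a genotype stem from different animals is not stated, and p-values therefore reflect only the spread among these libraries, which may be technical.

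Autophagy encloses cytoplasm in a double membrane and delivers it to lysosomes. The ULK kinase complex starts the process, a lipid kinase complex around beclin 1 marks the membrane with phosphatidylinositol 3-phosphate, and ATG9 vesicles, ATG2 lipid transporters and WIPI proteins let it grow. A conjugation system then attaches the small ATG8 proteins (the LC3 and GABARAP families) to the membrane, where cargo receptors such as p62, the product of Sqstm1, dock with ubiquitin-tagged cargo. In macrophages the pathway is known for clearing damaged mitochondria and bacteria and for restraining inflammasomes, and Sqstm1 is known as a target of the stress-response factor NRF2.

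The libraries held 19319512 to 22766319 counts, and depth did not differ detectably by genotype (p = 0.817 in a two-sided exact permutation test, which can reach 0.00794). Levels are given as CPM, counts scaled to the library size and to TMM factors, which adjust for composition. The TMM factors were 0.948 to 0.969 in WT and 1.02 to 1.07 in KO, so they differed by genotype without overlap. The floor, 3 counts, equals 0.132 to 0.155 CPM before the TMM factor and covers counting error only. Jaml had 2 counts in WT 1, 2 in KO 4 and 0 elsewhere, so it could not check the labels. On the second principal component KO 1 and KO 3 stood at 14.6 and 24.0 and the other KO libraries between -12.9 and -8.97. All 8 macrophage markers were detected, with summed levels of 24059 to 25618 CPM in WT and 23076 to 25067 CPM in KO. Lyz2 made up most of that sum. Among the other macrophage markers Fcgr1 (log2 fold change -1.62) and Mertk (-0.33) were lower in KO and Csf1r (0.16) and Cd14 (0.13) higher, each past the edgeR threshold. Of 4 T cell markers Cd3e was at 0 in every library, and the 4 summed to at most 0.224 CPM. The 7 mesothelial and fibroblast markers summed to 487 to 538 CPM in WT and 544 to 672 CPM in KO (mostly Col1a1 and Col1a2), although Upk3b and Pdgfra of that list were lower in KO (log2 fold changes -2.69 and -1.01, both past the edgeR threshold). Msln and Krt19 varied widely among KO libraries, at 0.302 to 11.4 and 0.196 to 3.18 CPM. In WT they were at 5.03 to 9.74 and 1.39 to 3.32 CPM. Sums in WT and KO were, for the 3 endothelial markers, 22.8 to 28.7 and 10.3 to 12.2 CPM (mostly Kdr), and, for the 5 mast cell markers, 5.22 to 10.4 and 3.41 to 4.47 CPM. Of the endothelial list only Kdr fell (log2 fold change -1.45). Cdh5 had -0.03 (edgeR adjusted p = 0.931), and Pecam1, near the floor, averaged 0.122 CPM in WT and 0.130 CPM in KO. The 4 B cell markers summed to at most 1.02 CPM, the 4 dendritic cell markers, with Xcr1 at 0 in every library, to at most 3.08 CPM, and the 5 neutrophil markers to 66.7 to 75.6 CPM in WT and 68.2 to 74.8 CPM in KO. The neutrophil sum was nearly all Csf3r and S100a8, as S100a9, Ly6g and Mpo had at most 3 counts in any library. S100a8 was higher in KO (log2 fold change 0.56, past the edgeR threshold), and Csf3r did not pass (-0.14). The part of the cell types named here in the results below was not tested. In bulk RNA, fewer cells of a type and less RNA per cell cannot be told apart.

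Most of the machinery lay close to its WT level, and the changes that passed were small. Of 37 members, 12 differed at an adjusted p under 0.05 (edgeR quasi-likelihood test, Benjamini-Hochberg over 14436 genes). This was 32.4% of members against 29.1% of all genes tested, a share near the background. Higher in KO were 8 members, against 14.1% of all genes, and lower were 4, against 15.0%. The median log2 fold change was 0.05 for the members and 0.01 for all genes, the median absolute value 0.10 and 0.17. No member reached a 2-fold change, and 2 reached 1.5-fold. For 8 members, or 21.6%, no KO library fell inside the WT range and no WT library inside the KO range, against 23.3% of all genes. Apart from Sqstm1 and Map1lc3b, members were picked for full description below by a call and this separation. When library totals replaced TMM, the median of all genes moved to 0.12 and that of the members to 0.16, and 19 members were higher and 3 lower. These 22 were 59.5% of members, against 38.7% of all genes called with library totals (29.3% higher and 9.43% lower). For the members and the named pathway genes other than Keap1 and Sesn3, that scaling raised each log2 fold change by 0.11 to 0.12. All values below are relative to TMM.

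The upstream sequences of 5 members are shown because they are both marker genes of the set (Sqstm1 and Map1lc3b), the most significant change (Wipi1) and, of the genes described by library below, those with a motif match (Tax1bp1 and Uvrag). Each run is taken from the 250 bases before a RefSeq start site in GRCm38.p6, 5′ to 3′ on the gene's strand, and stops where an exon of the same gene begins in GENCODE M21. Tax1bp1 has a pair of RefSeq windows, and the one with the match is given. The other, at chr6:52713479-52713728, held no motif match. Capitals mark a match to 1 of 4 motifs searched on both strands: TCACGTG (an extended E-box), TGACNNNGC (antioxidant response element, the site of NRF2), GGANTTTCC (an NF-kB site) and GAAANNGAA (core of the interferon-stimulated response element). Overlaps between motifs were allowed.
Sqstm1 (chr11:50210828-50211070, minus strand): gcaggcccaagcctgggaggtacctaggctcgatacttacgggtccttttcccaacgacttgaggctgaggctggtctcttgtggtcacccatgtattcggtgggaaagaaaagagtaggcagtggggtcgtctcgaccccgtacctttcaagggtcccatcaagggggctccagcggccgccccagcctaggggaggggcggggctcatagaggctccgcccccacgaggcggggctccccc
Tax1bp1 (chr6:52713915-52714164, plus strand): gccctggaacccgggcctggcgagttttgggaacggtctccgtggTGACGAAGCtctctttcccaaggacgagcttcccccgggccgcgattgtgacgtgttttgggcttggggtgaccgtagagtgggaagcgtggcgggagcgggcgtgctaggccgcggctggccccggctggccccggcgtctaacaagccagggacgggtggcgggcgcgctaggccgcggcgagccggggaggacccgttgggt
Uvrag (chr7:99141145-99141394, minus strand): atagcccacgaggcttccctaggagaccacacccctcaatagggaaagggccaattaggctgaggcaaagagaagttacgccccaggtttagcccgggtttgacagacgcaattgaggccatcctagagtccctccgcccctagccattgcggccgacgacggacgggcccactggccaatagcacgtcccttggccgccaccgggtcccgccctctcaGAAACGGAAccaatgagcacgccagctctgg
Wipi1 (chr11:109611433-109611639, minus strand): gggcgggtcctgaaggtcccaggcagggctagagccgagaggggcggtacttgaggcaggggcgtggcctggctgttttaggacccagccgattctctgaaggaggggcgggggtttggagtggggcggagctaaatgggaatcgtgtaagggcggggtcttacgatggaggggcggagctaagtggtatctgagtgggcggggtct
Map1lc3b (chr8:121590188-121590360, plus strand): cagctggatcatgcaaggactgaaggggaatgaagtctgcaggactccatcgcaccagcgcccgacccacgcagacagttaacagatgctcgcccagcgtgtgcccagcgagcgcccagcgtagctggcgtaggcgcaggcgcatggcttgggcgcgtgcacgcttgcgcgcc

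These motifs stood in 3.13%, 10.2%, 1.07% and 7.13% of the 32851 windows of the same length in the RefSeq table, in the order given. Among 34 windows of 30 members they were found in 2 (Atg3 and Atg7), 3 (Atg13, Tax1bp1 and Ulk2), 0 and 3 (Atg10, Nbr1 and Uvrag). The windows of Sqstm1, Wipi1 and Map1lc3b held none of the 4 in these 250 bases. The run of Sqstm1 also covers the first exon of Mgat4b on the other strand, and that of Tax1bp1 lies in an intron of its longer transcripts. For Sqstm1, Wipi1 and Map1lc3b the share of G and C in the window was 63.2%, 67.2% and 69.6%, against a median of 52.4% over all windows. A match is a description of letters and not a binding site.

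Of 5 cargo receptors 3 fell and none rose. These were 60%, against 15.0% of all genes lower and 29.1% called in either direction. The list is short. Sqstm1 encodes p62, a scaffold that gathers ubiquitinated cargo (ENSMUSG00000015837, chromosome 11, 50090193 to 50101654 in the deposited table). Its level was 3011, 2793, 3316, 2569 and 2748 CPM in WT 1 to 5 and 2255, 1832, 2096, 2357 and 2238 CPM in KO 1 to 5. The groups did not overlap, although the lowest WT library (WT 4) and the highest KO library (KO 4) were close. The mean went from 2887 ± 287 to 2156 ± 204 CPM (SD, n = 5 each), 1.34-fold lower, with a log2 fold change of -0.42 ± 0.08 (± SE, here and in later log2 values) and an edgeR adjusted p of 0.00165. With library totals the log2 fold change was -0.31.

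Tax1bp1, a ubiquitin-binding receptor that also limits NF-kB signalling, was the second most abundant receptor (ENSMUSG00000004535, chromosome 6, 52690714 to 52743765). It stood at 340, 334, 337, 342 and 355 CPM in WT 1 to 5 and at 304, 301, 267, 296 and 285 CPM in KO 1 to 5. Every KO library lay below every WT library, with KO 3 the lowest. The log2 fold change was -0.23 ± 0.04 (edgeR adjusted p = 0.000919), and -0.12 with library totals. Optn encodes optineurin, a receptor for damaged mitochondria and bacteria (ENSMUSG00000026672, chromosome 2, 5025453 to 5068862). Its levels were 61.1, 61.1, 60.5, 58.8 and 60.0 CPM in WT 1 to 5 and 55.8, 55.0, 49.1, 53.1 and 54.9 CPM in KO 1 to 5. The WT libraries were tightly grouped and KO 3 was again lowest, with no overlap. Its log2 fold change was -0.17 ± 0.04 (edgeR adjusted p = 0.00847), but the call was lost with library totals (-0.055, adjusted p = 0.305). The other receptors did not pass: Nbr1, a relative of p62, had 0.02 ± 0.04, and Calcoco1, an ER-phagy receptor, had 0.15 ± 0.06 (edgeR adjusted p = 0.0699). With library totals 2 receptors were called lower and 2 higher.

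**Figure D1:**
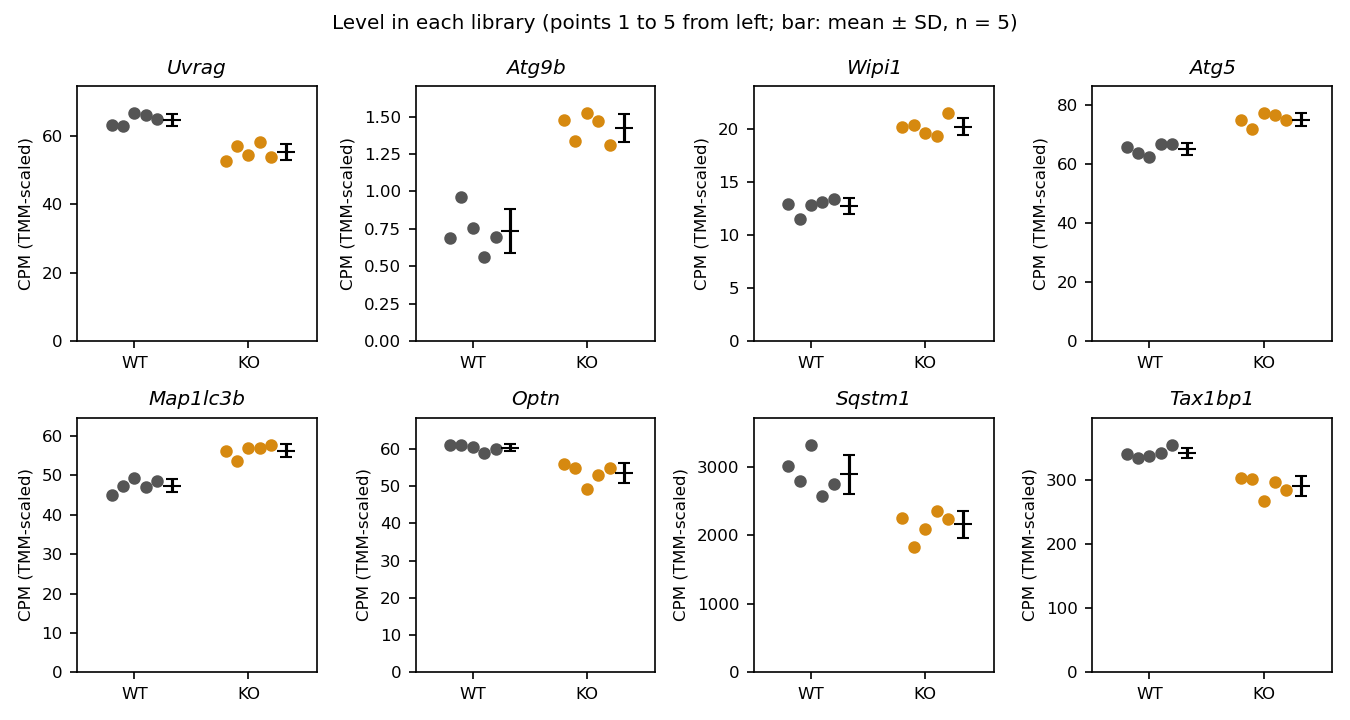
Level of 8 members in each library, in TMM-scaled CPM on axes from 0; points are libraries 1 to 5 from left in each genotype and bars the mean ± SD (n = 5). Apart from the markers Sqstm1 and Map1lc3b, members were picked for a call and for groups that did not overlap, so their separation follows from that choice. Uvrag, Optn, Sqstm1 and Tax1bp1 lie lower in all 5 KO libraries, and Atg9b, Wipi1, Atg5 and Map1lc3b higher.

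The ATG8 proteins, which coat the growing membrane and bind the receptors, all had positive log2 fold changes, and 2 of 5 passed. These were 40%, against 14.1% of all genes higher and 29.1% called in either direction. One of the calls (Gabarapl1) was unstable. Map1lc3b encodes LC3B, the usual marker of autophagosomes (ENSMUSG00000031812, chromosome 8, 122317100 to 122325499). It was at 44.9, 47.1, 49.2, 47.0 and 48.5 CPM in WT 1 to 5 and at 56.2, 53.5, 56.8, 57.0 and 57.7 CPM in KO 1 to 5. All KO libraries exceeded all WT libraries, and each group was narrow. The mean went from 47.3 ± 1.67 to 56.2 ± 1.63 CPM (SD, n = 5 each), 1.19-fold higher, with a log2 fold change of 0.25 ± 0.04 and an edgeR adjusted p of 0.000505. Zcchc14 overlaps the locus of Map1lc3b in the deposited table. It had a mean count of 15.3% of that of Map1lc3b and a log2 fold change of 0.07 (edgeR adjusted p = 0.781).

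Gabarapl1, a GABARAP-family member, rose by a log2 fold change of 0.18 ± 0.06 (edgeR adjusted p = 0.0454) with overlapping groups. Its levels were 176, 160, 150, 176 and 150 CPM in WT 1 to 5 and 187, 188, 188, 189 and 166 CPM in KO 1 to 5, so KO 5 stood below the other KO libraries and within the WT range. The call was lost in 10 of 19 alternative analyses (adjusted p up to 0.167), among them those without WT 2, WT 3, WT 5, KO 1, KO 2, KO 3 or KO 4. Map1lc3a (0.21 ± 0.09), Gabarap (0.08 ± 0.04) and Gabarapl2 (0.04 ± 0.06) did not pass, and with library totals Map1lc3a and Gabarap also passed. Sqstm1 and Map1lc3b thus moved in opposite directions in the same libraries. The ratio of their counts was 54.6 to 67.4 in WT and 34.2 to 41.4 in KO. Its ranges had to separate, because the groups of each gene already did so in opposite directions.

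**Figure D2:**
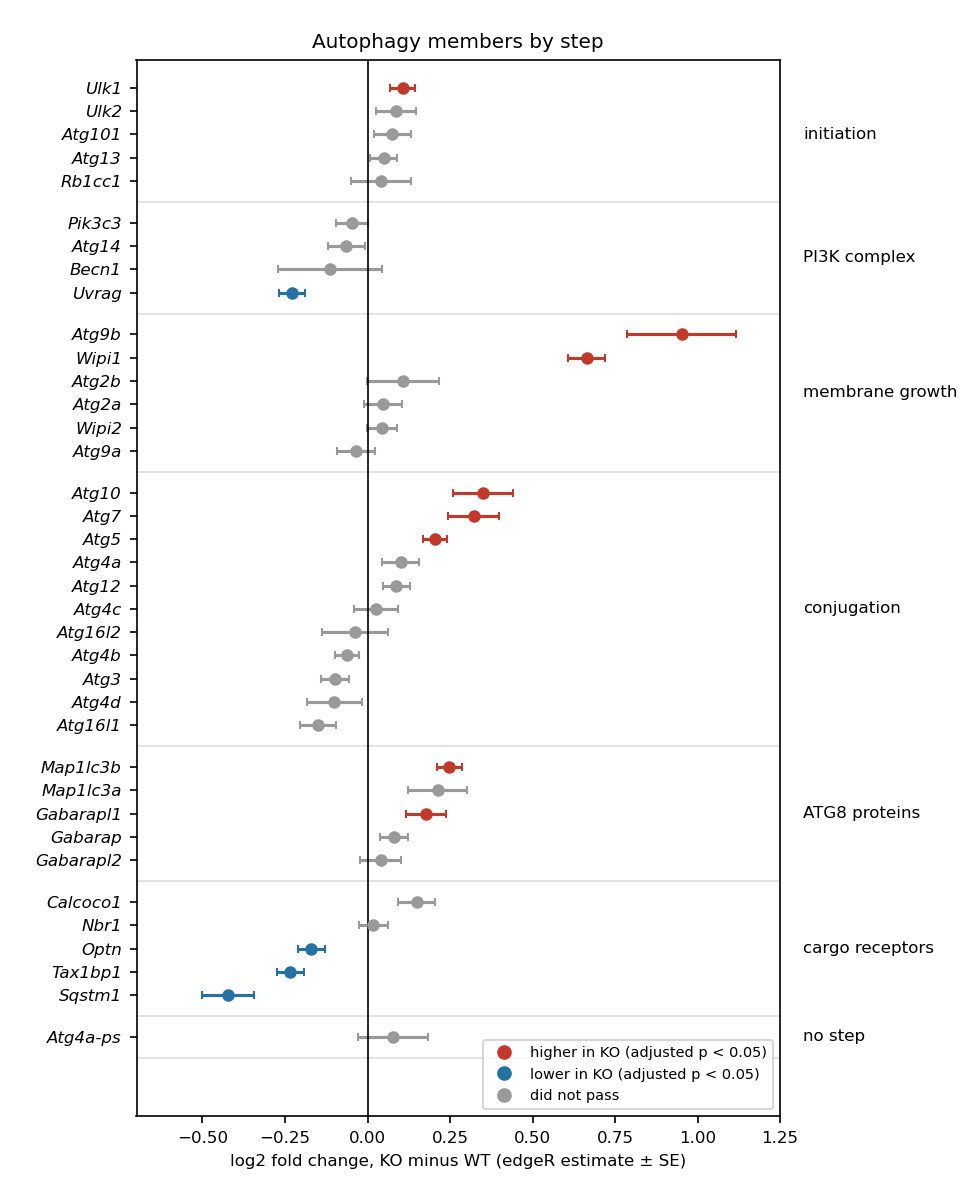
Log2 fold change, KO minus WT, of the 37 members grouped by step, as edgeR estimate ± SE; red and blue mark members past an adjusted p of 0.05. The 12 coloured members include 3 receptors and Uvrag on the lower side, and the largest values are those of Atg9b (0.95) and Wipi1 (0.66).

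Genes of membrane growth held the largest changes of the set, and 2 of 6 rose while none fell. That is 33.3%, against 14.1% of all genes higher and 29.1% called in either direction. Wipi1 encodes a protein that binds phosphatidylinositol 3-phosphate on the forming membrane (ENSMUSG00000041895, chromosome 11, 109464157 to 109502793). It was at 12.9, 11.5, 12.8, 13.2 and 13.4 CPM in WT 1 to 5 and at 20.2, 20.4, 19.7, 19.4 and 21.5 CPM in KO 1 to 5. The groups were far apart compared with the spread within each. The mean rose from 12.8 ± 0.745 to 20.2 ± 0.820 CPM (SD, n = 5 each), 1.59-fold, with a log2 fold change of 0.66 ± 0.06 (edgeR adjusted p = 4.12e-06). Its paralog Wipi2, which recruits the conjugation machinery, stayed uncalled at 0.04 ± 0.04.

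Atg9b, a paralog of the lipid scramblase gene Atg9a (ENSMUSG00000038295, chromosome 5, 24589179 to 24597141), was the least abundant member. It had 14, 18, 15, 11 and 14 counts in WT 1 to 5 and 32, 31, 34, 30 and 26 counts in KO 1 to 5. All counts were above the floor of 3 and the groups did not overlap. The level went from 0.734 ± 0.146 to 1.42 ± 0.0933 CPM (SD, n = 5 each), a log2 fold change of 0.95 ± 0.16 (edgeR adjusted p = 0.00100). Nos3 overlaps this locus in the table and had 0.225 ± 0.0821 CPM in WT and 0.342 ± 0.109 CPM in KO. Without a stated strand setting, reads of overlapping genes cannot be separated. Atg9a itself had -0.03 ± 0.06, and the lipid transporter genes Atg2a and Atg2b had 0.05 ± 0.06 and 0.11 ± 0.11. Atg9a and Atg2b overlap the genes Ankzf1 and Gskip, whose mean counts were 20.7% and 75.1% of theirs.

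The conjugation system works like ubiquitin attachment, and 3 of its 11 genes rose while none fell. That is 27.3%, against 14.1% of all genes higher and 29.1% called in either direction. Atg5 encodes the acceptor that is joined to ATG12 (ENSMUSG00000038160, chromosome 10, 44144354 to 44240287). Its levels were 65.8, 63.9, 62.4, 66.8 and 66.8 CPM in WT 1 to 5 and 75.0, 71.9, 77.3, 76.7 and 74.8 CPM in KO 1 to 5. No KO library fell within the WT range, which was a condition for describing this gene in full. The log2 fold change was 0.21 ± 0.04 (edgeR adjusted p = 0.00116). Atg7, the activating E1-like enzyme, rose by 0.32 ± 0.08 (edgeR adjusted p = 0.00875), from 51.9 to 67.6 CPM in WT and 67.4 to 79.6 CPM in KO. The ranges of Atg7 met at WT 2, its highest WT library. Atg10, the E2-like enzyme that acts on ATG12, rose by 0.35 ± 0.09 (edgeR adjusted p = 0.0125), from 4.87 to 6.71 CPM in WT and 6.69 to 7.61 CPM in KO.

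The remaining conjugation genes did not pass. Atg12, the ubiquitin-like partner of ATG5, had 0.09 ± 0.04, and Atg3, the E2-like enzyme for ATG8 proteins, had -0.10 ± 0.04. Atg16l1, which places the conjugation machinery on the membrane, had -0.15 ± 0.05 (edgeR adjusted p = 0.0586). Its paralog Atg16l2 had -0.04 ± 0.10. The proteases that trim and recycle ATG8 proteins had 0.10 ± 0.06 (Atg4a), -0.06 ± 0.04 (Atg4b), 0.03 ± 0.07 (Atg4c) and -0.10 ± 0.08 (Atg4d). Atg4a-ps, listed as protein-coding although its name marks a pseudogene, had 0.08 ± 0.11, and reads of Atg4a and this copy may have been split. Atg16l2, Atg4d and Atg4b overlap the genes Fchsd2, Kri1 and Thap4, whose mean counts were 519%, 150% and 25.0% of theirs.

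The lipid kinase complex changed in 1 of its 4 members, which fell. This 25% compares with 15.0% of all genes lower and 29.1% called in either direction. Uvrag, a subunit that directs the complex to autophagosome maturation and endosomes (ENSMUSG00000035354, chromosome 7, 98534228 to 98790348), was at 63.3, 62.9, 66.7, 66.2 and 65.0 CPM in WT 1 to 5. In KO 1 to 5 it was at 52.8, 57.2, 54.4, 58.2 and 53.9 CPM. All KO libraries lay below all WT libraries. The log2 fold change was -0.23 ± 0.04 (edgeR adjusted p = 0.000971), and -0.11 with library totals. The alternative subunit gene Atg14, which directs the complex to the forming membrane, had -0.06 ± 0.05, and the kinase gene Pik3c3 had -0.05 ± 0.05. Becn1, the beclin 1 gene, had -0.11 ± 0.16 and the largest relative spread of any member in KO, 25.2% of its mean. It was at 81.7 and 83.6 CPM in KO 1 and KO 2 and at 43.3, 64.3 and 59.2 CPM in KO 3 to 5, against 64.6 to 83.5 CPM in WT. Becn1 thus gives little precision on a difference between genotypes.

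Initiation genes had small positive values, and 1 of 5 was called, higher in KO. This 20% lies between the 14.1% of all genes higher and the 29.1% called in either direction. Ulk1, the starting kinase, rose by 0.11 ± 0.04 (edgeR adjusted p = 0.0497), from 50.5 to 54.8 CPM in WT and 54.2 to 57.8 CPM in KO, with overlapping ranges. This call was lost in 10 of 19 alternatives (adjusted p up to 0.0976): with the DESeq2 Wald test, with robust edgeR, with the replicate block (0.0799), without WT 1, WT 5, KO 2, KO 3, KO 4 or KO 5, and without KO 1 and KO 2 together. Its paralog Ulk2 had 0.09 ± 0.06, the scaffold gene Rb1cc1 0.04 ± 0.09, and the adaptor genes Atg13 and Atg101 0.05 ± 0.04 and 0.08 ± 0.06. With library totals 4 of these 5 genes were called higher.

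Levels could be ordered across members only per length. As CPM per kilobase of merged exons, Sqstm1 was first in WT at 860 ± 85.5 (SD, n = 5), followed by Gabarap at 175 ± 7.54, Gabarapl1 at 80.7 ± 6.66 and Tax1bp1 at 34.2 ± 0.804. These 4 differed from their neighbours by more than their spread. In KO the first 3 kept their order, at 642 ± 60.6, 185 ± 8.69 and 91.2 ± 5.01, and Atg5 (31.9 ± 0.895) stood above Tax1bp1 (29.1 ± 1.49). From Atg101 down to Map1lc3a, at 13.3 ± 0.622 to 12.4 ± 0.882 in WT, neighbours differed by less than 1 SD, as they did from Ulk1 (8.08 ± 0.249) to Atg4a (7.49 ± 0.251). Rb1cc1, Atg16l2 and Atg9b were the last 3 in both genotypes, Atg9b at 0.186 ± 0.0371 and 0.361 ± 0.0237. Wipi1 went from rank 34 of 37 to rank 28.

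Within the ATG8 proteins, on the same scale per length, the GABARAP family dominated. Gabarap made up 58.0 to 62.8% of the summed level in WT and 57.1 to 59.7% in KO, and Gabarapl1 25.3 to 30.0% and 27.6 to 30.0%. Map1lc3b made up 1.93 to 2.33% and 2.22 to 2.58%, and Map1lc3a 3.88 to 4.43% and 4.13 to 5.00%. The shares of each overlapped between genotypes. The low share of Map1lc3b rests on its merged exon length of 7517 bases, against 1181 for Map1lc3a. In CPM, not divided by length, Map1lc3b stood above Map1lc3a, at means of 47.3 and 14.6 in WT and 56.2 and 17.0 in KO. Sqstm1 alone held 53.1 to 59.8% of all counts of the 37 members in WT and 43.9 to 50.5% in KO.

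**Figure D3:**
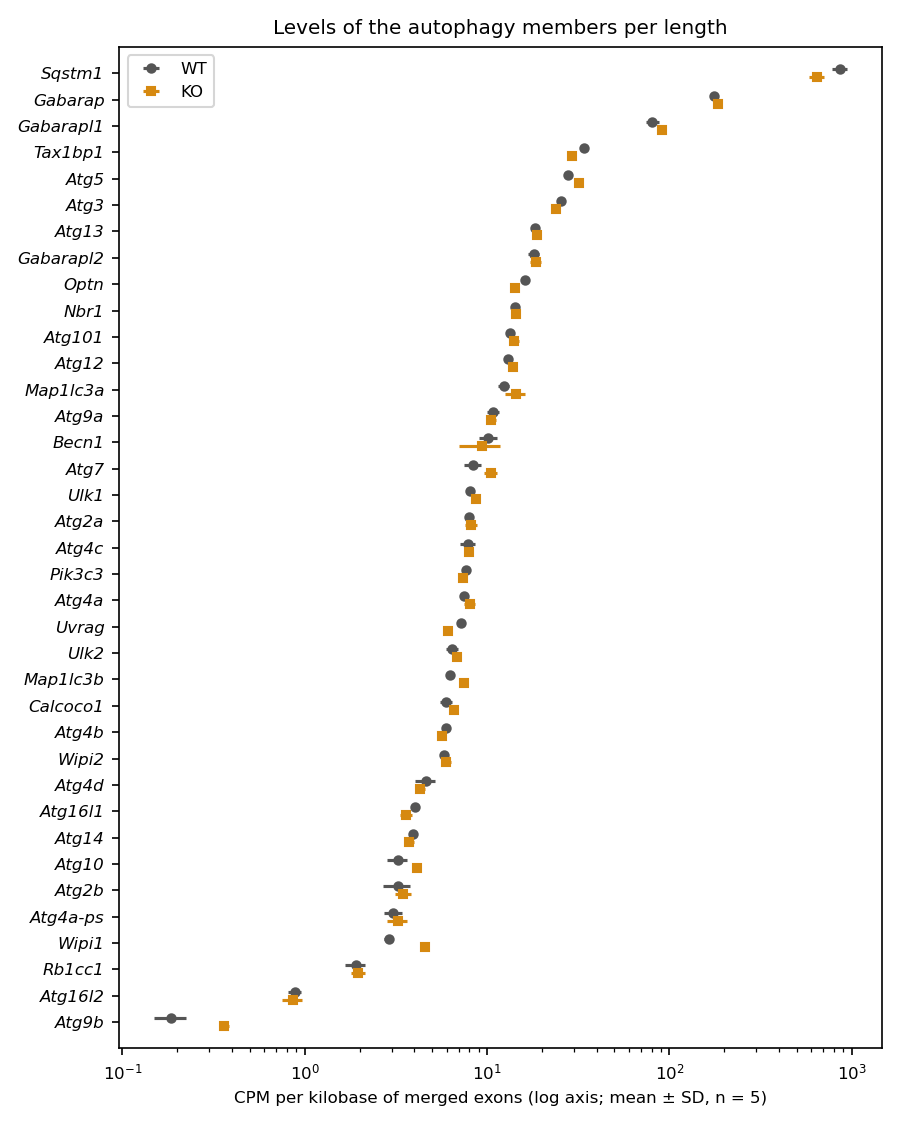
Level of each member as CPM per kilobase of merged exons on a log axis, mean ± SD (n = 5), WT as circles and KO as squares, sorted by WT. Sqstm1, Gabarap and Gabarapl1 stand apart at the top, and Wipi1 and Atg9b show the widest gaps between genotypes.

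Genes of the pathway outside the rule, in 5 lists of 81 genes, all of them tested, had more calls on the lower side. Higher in KO were 7 and lower were 18, and 25 called of 81 is 30.9%, again near the 29.1% of all genes. The median log2 fold change was -0.04. With library totals 25 were higher and 12 lower, so the balance of directions depends on the scaling. Among 9 transcriptional regulators 4 fell (44.4%, against 15.0% of all genes lower and 29.1% called in either direction) and none rose. Nfe2l2, which encodes NRF2, was at 366, 369, 362, 365 and 395 CPM in WT 1 to 5 and at 269, 272, 245, 275 and 262 CPM in KO 1 to 5. Its groups were wide apart, at a log2 fold change of -0.49 ± 0.04 (edgeR adjusted p = 3.94e-06). Mitf and Tfe3, which bind E-boxes of lysosomal and autophagy genes, fell by 0.29 ± 0.04 and 0.22 ± 0.04. Tfeb, the best known factor of that family, named after its value was seen, had 0.01 ± 0.05. Keap1, the other called gene of the list and also named after its value was seen, fell by 0.33 ± 0.09 (edgeR adjusted p = 0.0187). Its groups overlapped. With library totals 3 of the 9 were higher and 3 lower.

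Of 21 genes of nutrient control 3 rose and 4 fell, together 33.3% and near the 29.1% of all genes. The sestrins restrain the growth kinase complex mTORC1: Sesn1 rose by 0.69 ± 0.08 (edgeR adjusted p = 3.51e-05) and Sesn2 fell by 0.35 ± 0.05 (0.000124). Sesn1 was at 9.48 to 12.1 CPM in WT and 15.4 to 18.3 CPM in KO, and Sesn2 at 33.9 to 37.4 and 25.9 to 28.8 CPM. Neither overlapped between genotypes. The other sestrin gene, Sesn3, named after its value was seen, fell by 0.69 ± 0.22 (edgeR adjusted p = 0.0356). It was at 5.58 to 7.17 CPM in WT and 1.79 to 5.44 CPM in KO, also without overlap. Fnip2, a partner of folliculin in amino acid sensing, fell by 0.28 ± 0.05.

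Of 16 other core factors 1 rose and 4 fell, or 31.2% called, again near the background. Smcr8, which forms a complex with the C9orf72 protein that acts on small GTPases of membrane traffic, went from 187 ± 1.87 to 144 ± 11.6 CPM (SD, n = 5 each), a log2 fold change of -0.38 ± 0.05 (edgeR adjusted p = 0.000192). Its partner C9orf72, named after its value was seen, fell by 0.53 ± 0.15, with KO 1 at 48.0 CPM and the other KO libraries at 85.8 to 97.4 CPM. Without KO 1 its log2 fold change was -0.39. Ambra1, a regulator of the beclin 1 complex, fell by 0.25 ± 0.05 and Sh3glb1, a membrane-bending partner of UVRAG, by 0.23 ± 0.05. The call of Sh3glb1 was lost with library totals (adjusted p = 0.122).

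Of 15 genes for fusion with lysosomes 1 rose and 4 fell, or 33.3% called, also near the background. Snap29 and Vamp8, SNARE proteins that join autophagosome and lysosome, fell by 0.28 ± 0.04 and 0.23 ± 0.05, and the lysosomal membrane gene Lamp2 fell by 0.22 ± 0.03. Lamp2 was at 820 to 899 CPM in WT and 734 to 771 CPM in KO, without overlap. Vamp8 lost its call with library totals (adjusted p = 0.0727), and the list then had 5 higher and 2 lower.

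Of 20 genes of other selective autophagy 2 rose and 2 fell, fewer in all than the background share would give. Bnip3l, a receptor on mitochondria, rose by 0.33 ± 0.05 (edgeR adjusted p = 0.000297), from 104 to 119 CPM in WT and 129 to 144 CPM in KO. Retreg1, a receptor on the endoplasmic reticulum, rose by 0.69 ± 0.15, with KO 2 at 44.2 CPM, inside the WT range, and the other KO libraries at 74.0 to 77.9 CPM. With library totals this list had 11 higher and 2 lower.

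**Figure D4:**
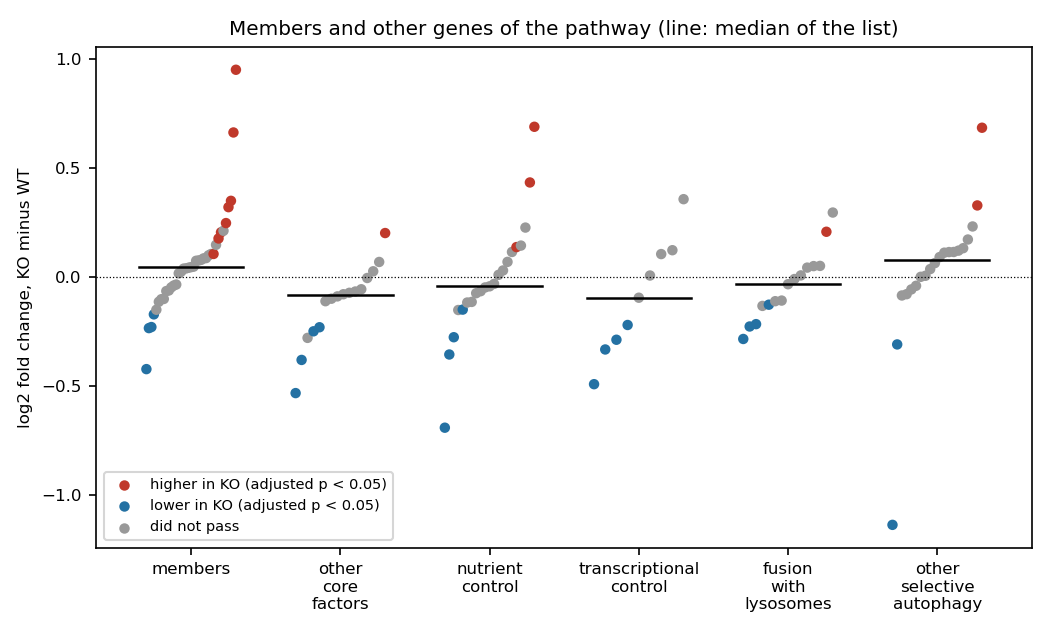
Log2 fold change, KO minus WT, of the 37 members and of 5 other pathway lists (81 genes); each point is a gene, colours mark an adjusted p under 0.05 and lines the list medians. Called members lie on both sides of 0, and 4 of 9 regulators are called below it.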

How the data were processed

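The authors deposited whole-number counts per gene and library for 10 libraries, and FPKM (counts per length and library size) in the same deposited table, per the file headers. CASAVA 1.8 and TopHat2 2.0.6 are named in the submitters' processing notes, with the builds mm10 and GRCm39; the counter, annotation and strand setting were not given in the sources used here. No member had the same position in a GRCm38 annotation, so table positions are given as listed. Of the FPKM columns, 5 under the SI heading were not used.

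Counts were tested with edgeR 4.0.16 in R 4.3.3 (quasi-likelihood, TMM, filterByExpr with a minimum count of 10), KO minus WT, on the 14436 genes kept (99.9% of counts), with a call threshold of 0.05 on the adjusted p. SE is the estimate divided by the root of F. The procedure was tested on simulated data. Levels per kilobase used TMM-scaled CPM and merged exons of GENCODE M21. Alternatives were DESeq2 size factors, library totals, no filter, 50 counts in 5 libraries, the replicate block, the DESeq2 1.42.0 Wald test, robust edgeR, each library left out, and KO 1 left out with KO 3 or KO 2. Values by library are given for Sqstm1, Map1lc3b and up to 3 called, non-overlapping members per step, and up to 3 called genes per other list are named, of which 1 is not reported here. Members and lists were chosen with earlier results of these data known.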

Additional observations from a re-analysis of the deposited data

Results flagged for a closer look

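The members and the named pathway genes other than Keap1 and Sesn3 gave 108 groups of 5 libraries. Of these, 7 held a library far from the other 4, where chance gives about 1 in 20 such groups. For members these were Atg9a in KO 1, at 55.2 CPM against 61.5 to 63.5 in the other KO libraries, and Gabarapl1 in KO 5, at 165.7 CPM against 187 to 189. For other pathway genes they were C9orf72 in KO 1 (48.0 CPM against 85.8 to 97.4), Retreg1 in KO 2 (44.2 CPM against 74.0 to 77.9), Sesn2 in WT 5 (37.4 CPM against 33.9 to 34.3), Fnip2 in WT 4 (301 CPM against 287 to 290) and Nfe2l2 in WT 5 (395 CPM against 362 to 369). Their cause was not tested.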

How the results depend on the processing

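Of 12 members called, 9 (Uvrag, Atg9b, Wipi1, Atg10, Atg5, Atg7, Map1lc3b, Sqstm1 and Tax1bp1) were called in the same direction under every one of the 19 alternatives in which they were tested; the filter of 50 counts in 5 libraries removed Atg9b. Ulk1, Gabarapl1 and Optn lost their call as given above. Calls were gained by Calcoco1 with the filter of 50 counts (adjusted p = 0.0422) and without WT 2 (0.0155), Atg12 without WT 1 (0.0214) and Atg16l1 without KO 2 (0.0311). With library totals 22 members (59.5%, against 38.7% of all genes) were called, 19 of them higher, with a median log2 fold change of 0.16, and 25 pathway genes outside the rule were higher. That last count was 11 with the filter of 50 counts and 4 with the replicate block. Uncalled members turned positive with library totals: Atg14 (0.051), Becn1 (0.0016), Pik3c3 (0.069), Atg9a (0.081), Atg16l2 (0.081), Atg3 (0.015), Atg4b (0.055) and Atg4d (0.016).

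With single libraries left out the log2 fold change crossed 0 for Atg9a (-0.050 to 0.016), Tfeb (-0.018 to 0.044), Rb1cc1 (-0.014 to 0.099), Atg16l2 (-0.093 to 0.0091), Atg4c (-0.016 to 0.065), Becn1 (-0.21 to 0.0083) and Nbr1 (-0.0063 to 0.051). It was 0.0064 for Atg9a without KO 1 and KO 3 and -0.0022 for Tfeb without KO 1 and KO 2. Deviations of same-numbered WT and KO libraries correlated at -0.104 to 0.126, and 1 of 5 WT numbers matched its own KO number best. No pairing by number was seen, although so few libraries cannot exclude a weak one. With the replicate block 11 members and 21 genes outside the rule were called. By the length implied in the deposited FPKM, a choice added after the data were seen, Map1lc3b ranked 26 of 37 members in WT in place of 24.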

Other observations

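Dividing the deposited counts by the deposited FPKM gives the gene length the authors used. It was larger than the span of the locus for 3 of 37 members: Map1lc3b (10574 against 8400 bases), Map1lc3a (2531 against 1777) and Atg9a (11477 against 11337). Merged exons of these genes measured 7517, 1181 and 5762 bases. Comparisons between genotypes of 1 gene do not depend on its length.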
